A study of Mus musculus with 6 samples.

Results

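Messenger RNA of cytotoxic and mast cell-type granule proteins was measured in sorted group 2 innate lymphoid cells (ILC2), the innate lymphocytes best known for the type 2 cytokines IL-5 and IL-13. The genes described here are 10 of the 37991 Ensembl genes counted, chosen by name as the granzymes Gzma to Gzmf, perforin (Prf1) and the mast cell protease genes Mcpt1, Mcpt2 and Mcpt8, and all 10 were found in the count tables by their symbols. The mice were homozygous for a transgene in which the proximal lck promoter drives Id1, whose product blocks E proteins, a class of transcription factors. The line was made on the FVB/N background and, per the labels, crossed to C57BL/J for 10 generations or more, and in its mice T cell development is blocked and ILC2 accumulate. Every library carries this transgene, and no library of mice without it was analysed here. Cells were sorted as lineage-negative, Thy1-positive and ST2-positive, about 300000 per sample. The groups are ILC2 of the mesenteric lymph nodes (MLN) kept in culture after sorting for 1 week, with each of IL-33, IL-25 and IL-7 at 10 ng/ml, ILC2 taken directly from the thymus, and ILC2 taken directly from MLN, which are called fresh, with 2 libraries in each group. The age and sex of the mice are not given in the labels, nor whether the 2 libraries of a group came from separate animals or cultures, so the p-values here speak of the spread between libraries, which may be technical.

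Granzymes are serine proteases that cytotoxic T cells and natural killer (NK) cells store in granules on the proteoglycan serglycin and release onto a target cell together with perforin, which forms pores in its membrane. Granzyme B cleaves after aspartate and starts apoptosis through caspases and Bid, granzyme A is a tryptase, and granzymes C to F are rodent proteins found in strongly stimulated killer cells. Mast cells and basophils store related enzymes: in the mouse, Mcpt1 and Mcpt2 encode proteins of mucosal mast cells, and Mcpt8 encodes a protease of basophils. In the mouse, Gzmb to Gzmf, the mast cell proteases and cathepsin G are encoded side by side in a gene cluster on chromosome 14. Of the 10 genes 8 are in that cluster, while Gzma is on chromosome 13 and Prf1 on chromosome 10.

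The start regions of 9 of these genes share a short word, which some other genes of the cluster hold too. Promoter sequence, taken here as the 250 bases before the gene start, was available from RefSeq (build GRCm38.p6) for 9 of the 10 genes; there was no entry for Mcpt2. The letters TGTGGT, the core that RUNX transcription factors recognise, occurred on at least 1 strand in 9 of these 9 promoters, against 14% of the 32851 promoters of the same length. The promoters of the 5 genes with the highest levels per kilobase in cultured cells are printed here so that the position of the word can be read, in lower case with TGTGGT, or its reverse complement ACCACA, in capitals. They lie at chr14:56262335-56262584 (minus strand) for Gzmb, chr14:56085198-56085447 (minus strand) for Mcpt8, chr14:56234658-56234907 (minus strand) for Gzmc, chr13:113100982-113101231 (minus strand) for Gzma and chr10:61297586-61297835 (plus strand) for Prf1, and each is written 5′ to 3′ on the strand of its gene.
Gzmb: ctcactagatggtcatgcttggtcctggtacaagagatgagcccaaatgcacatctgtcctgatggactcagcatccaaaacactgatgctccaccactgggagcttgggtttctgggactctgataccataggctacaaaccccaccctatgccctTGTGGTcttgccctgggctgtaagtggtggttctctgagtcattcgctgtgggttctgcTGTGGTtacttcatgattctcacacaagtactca
Mcpt8: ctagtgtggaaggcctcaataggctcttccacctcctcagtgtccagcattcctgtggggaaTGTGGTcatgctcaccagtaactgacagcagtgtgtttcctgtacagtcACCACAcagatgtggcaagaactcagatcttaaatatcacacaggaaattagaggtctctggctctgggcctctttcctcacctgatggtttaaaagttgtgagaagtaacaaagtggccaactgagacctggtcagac
Gzmc: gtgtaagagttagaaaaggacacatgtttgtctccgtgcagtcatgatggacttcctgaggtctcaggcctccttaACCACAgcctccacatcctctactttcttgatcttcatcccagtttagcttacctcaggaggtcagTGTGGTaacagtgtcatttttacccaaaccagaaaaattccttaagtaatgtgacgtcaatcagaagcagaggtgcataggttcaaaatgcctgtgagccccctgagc
Gzma: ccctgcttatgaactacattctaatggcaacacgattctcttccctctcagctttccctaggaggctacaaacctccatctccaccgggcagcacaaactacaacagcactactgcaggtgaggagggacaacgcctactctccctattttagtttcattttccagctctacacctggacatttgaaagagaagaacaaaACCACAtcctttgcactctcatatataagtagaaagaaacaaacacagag
Prf1: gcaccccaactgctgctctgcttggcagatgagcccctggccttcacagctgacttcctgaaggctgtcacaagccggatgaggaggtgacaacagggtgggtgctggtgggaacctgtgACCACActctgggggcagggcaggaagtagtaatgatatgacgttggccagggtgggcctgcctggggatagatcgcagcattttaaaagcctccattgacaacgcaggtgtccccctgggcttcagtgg

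In Gzmb the word begins 93 and 34 bases before the gene start, in Mcpt8 188 and 139 bases, in Gzmc 174 and 108 bases, in Gzma 50 bases and in Prf1 130 bases. These promoters are not independent of one another, since the genes of the cluster are known to have arisen by duplication. Over the aligned part, the promoters of Gzmd and Gzme were 95.6% identical, those of Gzmc and Gzme 87.2%, those of Mcpt1 and Mcpt8 82.8% and those of Gzmb and Mcpt8 73.1%. Gzma and Prf1, on other chromosomes, hold the word too. Among other genes of the cluster with a promoter entry, Gzmg, Mcpt4 and Ctsg held the word, while Cma1, Mcpt9 and Gzmn did not. Gzmg had no count in any library. What part the word had in the levels was not tested. Other words were searched on both strands in the same windows. The ETS word AGGAAGT was in 5 of the 9 (Gzmc, Gzmd, Gzme, Gzmf and Prf1), against 7.69% of all promoters. The AP-1 word TGANTCA was in 1, Gzmb, where it begins 58 bases before the start, against 6.75% of all. The E-box CANNTG, the word of E proteins, was in 8 of the 9 (all but Mcpt1), against 66.2% of all. The GATA word AGATAA and the STAT word TTCNNNGAA were in 0 of the 9, against 9.99% and 7.02% of all. In these 9 promoters no match of a word shared a base with a match of another. A match describes the sequence and shows no binding.

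Library totals ran from 35280692 to 40578264 counts, and levels are given as CPM, the count of a gene per 1e+06 counts of its library after scaling the total by a TMM factor. The genes of the sort were measured in every library. Il1rl1, which encodes ST2, was 1444 to 2342 CPM and Ptprc, the pan-leukocyte gene, 1014 to 1187 CPM over the 6 libraries, and Gata3, the factor that ILC2 depend on, was 1034 and 1064 CPM in cultured cells, 647.7 and 673.0 CPM in thymus and 622.3 and 599.0 CPM in fresh MLN. Rora, another factor of ILC2, picked after its values were seen, was lower in cultured cells, at 162.6 and 129.2 CPM, against 809.1 and 626.1 CPM in thymus and 639.2 and 581.8 CPM in fresh MLN. Thy1 was 106.5 and 119.6 CPM in cultured cells, 725.5 and 736.1 CPM in thymus and 370.9 and 299.7 CPM in fresh MLN. Il7r, the IL-7 receptor chain, was 868.9 and 834.5 CPM in cultured cells, 1412 and 1448 CPM in thymus and 2143 and 2418 CPM in fresh MLN. Id1 itself, transgene and endogenous gene together, was 1.48 and 1.19 CPM in cultured cells, 421.6 and 426.4 CPM in thymus and 434.2 and 468.7 CPM in fresh MLN. The transcript that defines the mice was thus lower after culture, by a log2 fold change of -8.41 ± 0.11 against fresh MLN (SE; edgeR adjusted p = 7.68e-15), and what part that had in the results was not tested.

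Culture was the condition with high granule gene levels. The comparison with fresh MLN sets cells after 1 week with the ILC2 cytokines beside cells taken directly from the same organ. No library of cells cultured without these cytokines was analysed here. The cytokines, the time in culture and the lower Id1 thus cannot be told apart. Gzmb was one of the most abundant messages of cultured cells, and Mcpt8 was high there but had only a few counts in fresh MLN. Gzma and Prf1, well measurable in fresh MLN too, were 4.09-fold and 3.45-fold higher in cultured cells. Genes are called higher or lower at an adjusted p under 0.05 in the quasi-likelihood F test of edgeR, with Benjamini-Hochberg adjustment over all 16231 genes tested, and errors of log2 fold changes are standard errors (SE) from that test. In bulk RNA, a change in the share of cells that make a message and a change in the amount per cell cannot be told apart.

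**Figure D1:**
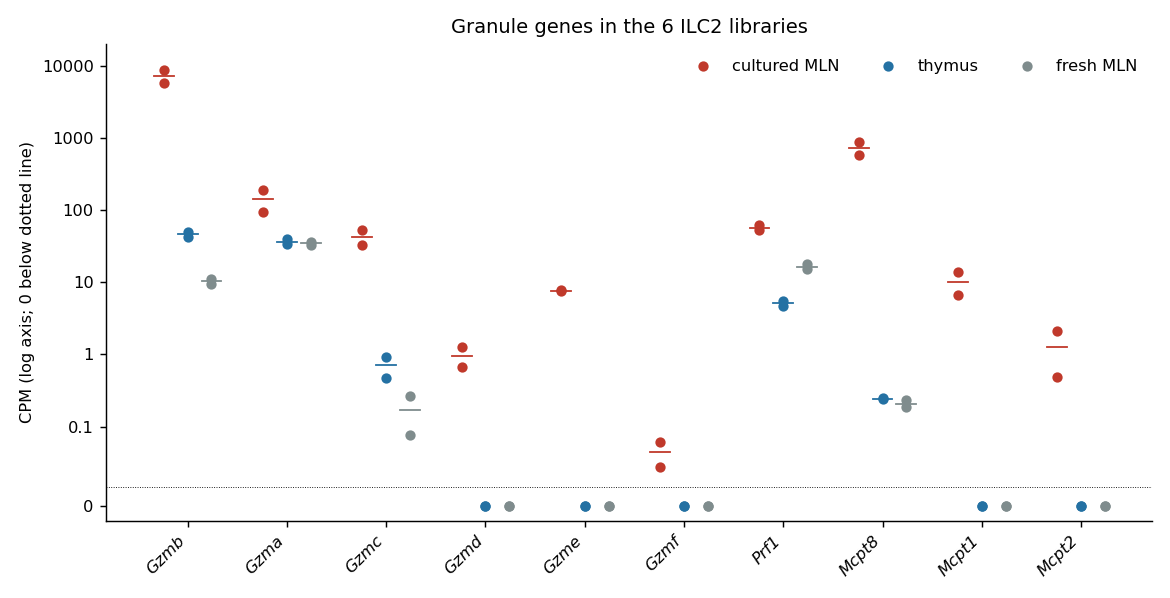
Normalised level (CPM, log axis, with 0 drawn below the dotted line) of each granule gene in each library; points are libraries, short lines the mean of the 2 libraries of a group, and colours the groups cultured MLN, thymus and fresh MLN. For every gene both cultured libraries lie above all libraries of the other groups, from Gzmb at 5752 and 8625 CPM down to Gzmf at 2 and 1 counts, and Gzmd, Gzme, Gzmf, Mcpt1 and Mcpt2 have no count in thymus or fresh MLN.

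Gzmb (ENSMUSG00000015437) was 5752 and 8625 CPM in cultured cells, 50.5 and 42.1 CPM in thymus and 10.97 and 9.56 CPM in fresh MLN. No 2 groups overlapped, and the order was cultured, thymus, fresh MLN. The level averaged 7189 ± 2032 CPM in cultured cells and 10.3 ± 0.999 CPM in fresh MLN (SD, n = 2 each), a 700-fold difference with a log2 fold change of 9.45 ± 0.22 (SE; edgeR adjusted p = 3.56e-13). Against thymus, at 46.3 ± 5.94 CPM (SD, n = 2), the log2 fold change of cultured cells was 7.28 ± 0.20 (SE; edgeR adjusted p = 1.91e-12), or 155-fold. In cultured cells Gzmb alone took 0.515% of all counts in library 1 (exact 95% binomial interval 0.512% to 0.517%) and 0.771% in library 2 (0.768% to 0.774%). By mean CPM it ranked 9 among all genes there, and by CPM per kilobase of exon it ranked 4 among the 32919 genes with an annotated length. The interval covers counting error only and is far narrower than the gap between the libraries.

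Gzma (ENSMUSG00000023132) was 94.2 and 188.2 CPM in cultured cells, 39.2 and 33.9 CPM in thymus and 36.2 and 32.8 CPM in fresh MLN. The cultured libraries were above all others, and thymus and fresh MLN overlapped. Its log2 fold change was 2.03 ± 0.23 for cultured against fresh MLN (SE; edgeR adjusted p = 2.27e-06), or 4.09-fold, and 1.95 ± 0.22 for cultured against thymus (SE; edgeR adjusted p = 4.13e-06), or 3.86-fold. Gzma, the granule gene highest per kilobase in fresh MLN, thus had one of the smallest changes of the set.

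Gzmc (ENSMUSG00000079186), the neighbour of Gzmb in the cluster, was 32.4 and 52.7 CPM in cultured cells, 0.936 and 0.479 CPM in thymus and 0.0771 and 0.266 CPM in fresh MLN. The fresh MLN values rest on 3 and 10 counts. The groups did not overlap, and the log2 fold change was 7.94 ± 0.37 for cultured against fresh MLN (SE; edgeR adjusted p = 3.08e-10), or 248-fold, and 5.89 ± 0.30 against thymus (SE; edgeR adjusted p = 9.09e-10), or 60.1-fold. Against fresh MLN the log2 fold change was 7.31 without the first fresh MLN library and 9.04 without the second.

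Gzmd, Gzme and Gzmf, the middle granzymes of the cluster, had no count in any thymus or fresh MLN library. Gzme (ENSMUSG00000022156) had 251 and 281 counts in the cultured libraries, which is 7.57 and 7.75 CPM. That is at least 196-fold above fresh MLN and at least 200-fold above thymus, taking 3 counts over the group as the limit that a count of 0 allows (edgeR adjusted p = 5.46e-09 and 6.99e-09 for the test of each difference). Gzmd (ENSMUSG00000059256) had 22 and 46 counts in cultured cells, at least 25.0-fold above fresh MLN and at least 25.5-fold above thymus. It was called by edgeR (adjusted p = 3.83e-05 against fresh MLN and 4.42e-05 against thymus) but not by DESeq2, with an adjusted p of 0.160 and 0.169. Gzmf (ENSMUSG00000015441) had 2 and 1 counts in cultured cells, too few to be tested. Gzmd and Gzme passed the filter on low counts only through the cultured libraries. They had to differ there, so their p-values are no independent support. The transcripts of Gzmd and Gzme are 95.1% identical, and 21.9% of the 50-base windows of Gzmd and 20.6% of those of Gzme occur without a difference in another gene. How reads that fit several genes were counted is not given in the sources used here, so the split of counts among these copies is uncertain. With the counts of Gzmd, Gzme, Gzmf and Gzmg added into 1 feature, the feature was called in the same direction. None of these genes had a count in thymus or fresh MLN, so that direction was fixed and does not bear on the split. Gzma, Gzmb and Prf1 and the 3 mast cell protease genes share no such window.

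Prf1 (ENSMUSG00000037202), the pore former that lets granzymes into a target cell, changed less than Gzmb. It was 52.8 and 61.4 CPM in cultured cells, 5.57 and 4.68 CPM in thymus and 17.8 and 15.3 CPM in fresh MLN. The groups did not overlap, and here thymus was the lowest. The log2 fold change was 1.79 ± 0.11 for cultured against fresh MLN (SE; edgeR adjusted p = 4.40e-09), or 3.45-fold, and 3.47 ± 0.12 against thymus (SE; edgeR adjusted p = 2.70e-11), or 11.1-fold.

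Mcpt8 (ENSMUSG00000022157), the basophil protease gene, had the largest log2 fold change of the granule genes counted in every group. It was 587.6 and 866.4 CPM in cultured cells, 0.247 and 0.239 CPM in thymus and 0.231 and 0.186 CPM in fresh MLN, where it had 9 and 7 counts. The cultured libraries stood far above the others, with a log2 fold change of 11.74 ± 0.26 against fresh MLN (SE; edgeR adjusted p = 2.26e-13), or 3490-fold, and 11.53 ± 0.25 against thymus (SE; edgeR adjusted p = 3.23e-13), or 2990-fold. Mcpt8 ranked 172 by CPM and 53 by CPM per kilobase among all genes of cultured cells. By the rank of its log2 fold change against fresh MLN it was 25 among the 16231 genes tested. Mcpt8 passed the filter on low counts only through the cultured libraries, so it had to differ there. Its p-values and rank are thus no independent support.

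Mcpt1 and Mcpt2, the mucosal mast cell genes, were counted in cultured cells and nowhere else. Mcpt1 (ENSMUSG00000022227) had 223 and 499 counts, or 6.73 and 13.8 CPM, at least 265-fold above fresh MLN and at least 271-fold above thymus (edgeR adjusted p = 1.46e-07 and 1.85e-07). Mcpt2 (ENSMUSG00000022226) had 16 and 76 counts, or 0.483 and 2.10 CPM, at least 33.8-fold above fresh MLN and at least 34.5-fold above thymus. As with Gzmd, edgeR called Mcpt2 (adjusted p = 1.98e-04 and 2.22e-04) and DESeq2 did not (adjusted p = 0.137 and 0.144). Library 2 held most of the Mcpt2 counts. Both genes passed the filter on low counts only through the cultured libraries. They had to differ there, so their p-values are no independent support.

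The count of genes called has to be read against a background in which most genes changed. Of the 10 genes 9 passed the filter on low counts, and Gzmd, Gzme, Mcpt1, Mcpt2 and Mcpt8 passed only through the cultured libraries, so that they had to differ there. The 4 genes that pass without the cultured libraries, Gzma, Gzmb, Gzmc and Prf1, were all called higher in cultured cells against fresh MLN, where 39.4% of all genes tested were called higher, 77.6% were called in either direction, and 44.6% had both cultured libraries above both fresh ones (44.6% below). Against thymus the same 4 were called higher, where 34.8% of all genes were called higher, 72.7% were called in either direction and 40.8% had both cultured libraries above both thymus ones (45.1% below). A log2 rise of 5 or more was less common: 4.69% of all genes were called higher by at least that much against fresh MLN and 3.39% against thymus, and Gzmb and Gzmc were among them in both.

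**Figure D2:**
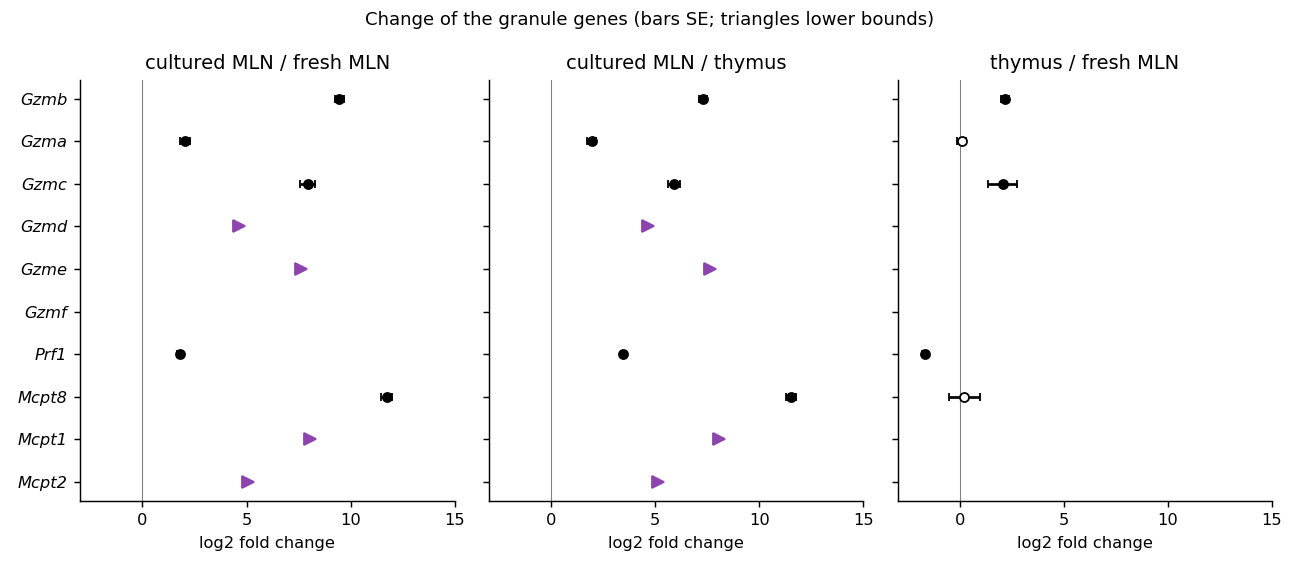
Log2 fold change of granule genes in cultured against fresh MLN, cultured MLN against thymus, and thymus against fresh MLN. Filled circles were called, open circles were not, bars are 1 SE, and triangles are lower bounds for genes with no count in the lower group. Gzmf, with too few counts, is not drawn, nor are Gzmd, Gzme, Mcpt1 and Mcpt2 in thymus against fresh MLN. All values drawn for cultured cells lie to the right of 0, from 1.79 for Prf1 to 11.74 for Mcpt8 against fresh MLN. Thymus against fresh MLN has Gzmb and Gzmc to the right and Prf1 to the left.

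The composition of the granule messages differed among the groups as well as their amount. Within the counts of the 10 genes, Gzmb made up 88.0% and 87.8% in the cultured libraries, 52.4% and 51.7% in thymus and 16.8% and 16.5% in fresh MLN. Gzma made up 1.44% and 1.92% in cultured cells, 40.6% and 41.7% in thymus and 55.5% and 56.5% in fresh MLN. Prf1 made up 0.808% and 0.625% in cultured cells, 5.77% and 5.75% in thymus and 27.2% and 26.3% in fresh MLN. The groups did not overlap in these shares. The 2 libraries of a group were close for Gzmb, while in cultured cells library 2 had a larger share of Gzma and a smaller one of Prf1. Mcpt8 made up 8.99% and 8.82% in cultured cells, 0.255% and 0.294% in thymus and 0.354% and 0.320% in fresh MLN. A share can be lower where the level is higher, as for Gzma and Prf1 in cultured cells. Per kilobase of exon, the order of levels in cultured cells was Gzmb (5006 CPM per kb), Mcpt8 (729), Gzma (140), Gzmc (47.6), Prf1 (22.1), Mcpt1 (10.1), Gzme (8.36), Mcpt2 (1.22), Gzmd (1.00) and Gzmf (0.0478), all in CPM per kb. In that order the libraries of Mcpt1 and Gzme overlapped, as did those of Mcpt2 and Gzmd. In thymus Gzma (36.3 CPM per kb) and Gzmb (32.2 CPM per kb) overlapped at the top, above Prf1 (1.98), Gzmc (0.792) and Mcpt8 (0.243). In fresh MLN Gzma (34.3 CPM per kb) led, Gzmb (7.15 CPM per kb) and Prf1 (6.40 CPM per kb) overlapped, and Mcpt8 (0.209) and Gzmc (0.192) overlapped near the bottom.

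Thymus was set against fresh MLN to see how ILC2 depend on their organ, one being the site of T cell development and the other a lymph node. Gzmb and Gzmc were higher in thymus, Prf1 was lower, and Gzma and Mcpt8 were not called. Gzmb was 46.3 ± 5.94 CPM in thymus and 10.3 ± 0.999 CPM in fresh MLN (SD, n = 2 each), a log2 fold change of 2.17 ± 0.18 (SE; edgeR adjusted p = 4.73e-07), or 4.51-fold. Prf1 was 5.57 and 4.68 CPM in thymus against 17.8 and 15.3 CPM in fresh MLN, a log2 fold change of -1.69 ± 0.13 (SE; edgeR adjusted p = 2.21e-07). The protease and the pore former thus differed in opposite directions between the organs. Gzma had a log2 fold change of 0.08 ± 0.23 (SE; edgeR adjusted p = 0.796) and Mcpt8 one of 0.21 ± 0.75 (SE; edgeR adjusted p = 0.843). Gzmc had 38 and 18 counts in thymus against 3 and 10 in fresh MLN, a log2 fold change of 2.05 ± 0.68 (SE; edgeR adjusted p = 0.0256). That call was lost without the first fresh MLN library (1.42, adjusted p = 0.147) and without the first thymus library (1.48, adjusted p = 0.201), and in the edgeR test against a 2-fold change (adjusted p = 0.281). Without the second fresh MLN library the log2 fold change was 3.155 (adjusted p = 0.0246). Of all genes tested 47.3% were called in this comparison, 25.3% higher and 22% lower, 37.2% had both thymus libraries above both fresh ones and 35.6% both below, and 3 called of the 4 granule genes that pass the filter without culture is read as no result about the set.

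The comparisons of cultured cells and of thymus with fresh MLN share the fresh libraries, so their values are given side by side only. Gzmb had log2 fold changes of 9.45 in cultured cells and 2.17 in thymus, Gzmc 7.94 and 2.05, Gzma 2.03 and 0.08, and Prf1 1.79 and -1.69.

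The 8 genes on chromosome 14 lie in a run of 15 protein-coding genes that RefSeq orders as Cma1, Cma2, Mcpt1, Mcpt2, Mcpt9, Mcpt4, Mcpt8, Ctsg, Gzme, Gzmd, Gzmg, Gzmn, Gzmf, Gzmc and Gzmb. Only this order was used, because the reads were counted on an earlier build. In cultured cells the levels within the run spanned a wide range from gene to gene. Of the 15 genes 10 were tested and 10 were higher in cultured cells than in fresh MLN, beside 39.4% of all genes tested, but 7 of them passed the filter only through the cultured libraries, and the 3 that did not need them were Gzmb, Gzmc and Ctsg. Of the 8 protein-coding genes before the run 7 were tested, of which 4 were higher, 1 lower and 2 not called, with a median log2 fold change of 0.64 and a range from -0.82 to 3.20. Of the 8 after it 7 were tested, of which 0 were higher, 5 lower and 2 not called, with a median of -0.25 and a range from -1.66 to 0.08. Atp12a, the first gene beyond Gzmb, had no count in any library. The next, Rnf17, had a log2 fold change of 0.08 ± 0.29 (SE; edgeR adjusted p = 0.799). On the other side Sdr39u1, the last gene before Cma1, had one of 0.02 ± 0.08 (SE; edgeR adjusted p = 0.861). Against thymus Rnf17 was called higher in cultured cells, by 1.56 ± 0.33 (SE, edgeR adjusted p = 0.000855). So was Sdr39u1, by 0.27 ± 0.08 (SE, edgeR adjusted p = 0.00879). In that comparison 7 of the 7 tested genes before the run were higher. Of the 7 after it 2 were higher, 3 lower and 2 not called, beside 34.8% and 37.8% of all genes. In thymus against fresh MLN 3 genes of the run were higher (Gzmb, Gzmc and Ctsg; 25.3% of all genes), 2 were not called, and the other 5 tested had no count in either group.

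**Figure D3:**
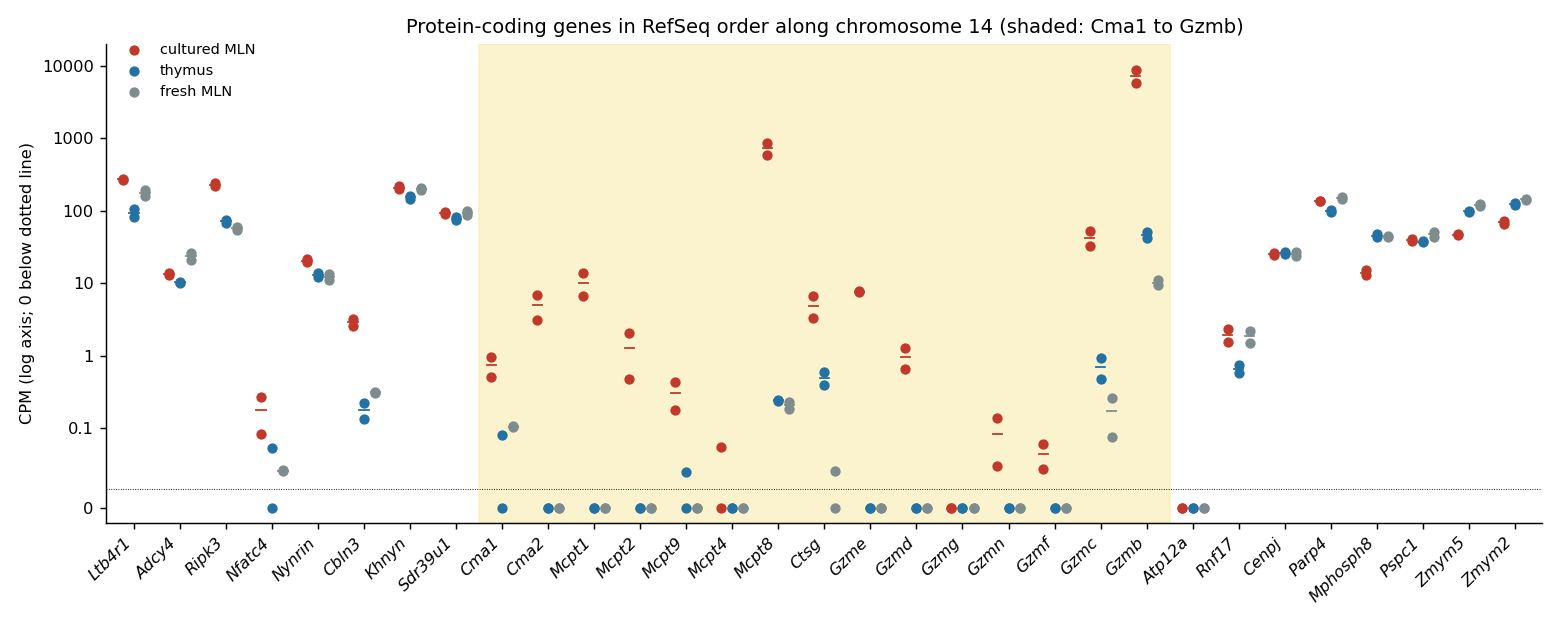
Normalised level (CPM, log axis, with 0 below the dotted line) of the protein-coding genes along chromosome 14 in RefSeq order, with the run from Cma1 to Gzmb shaded and 8 genes drawn on each side; points are libraries and short lines group means for cultured MLN, thymus and fresh MLN. Within the shaded run the cultured points of the 10 tested genes lie above the others, by 3490-fold against fresh MLN for Mcpt8, while Gzmg has no count and Mcpt4 has 0 and 2 counts in cultured cells. The tested genes outside the run lie between -1.66 and 3.20 in log2 fold change against fresh MLN, and Cbln3, at 3.20, is above Cma1 within it, at 2.79.

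Of 18 other granule proteases, all were in the count tables and 6 could be tested. In cultured cells against fresh MLN 3 of these were higher (Ctsg, Cma1 and Cma2), 2 were lower (Cpa3 and Gzmm) and Prss57 was not called. Of all genes tested 39.4% were higher and 38.1% lower there. Against thymus 3 were higher and 3 lower, beside 34.8% and 37.8% of all genes. Cma1 and Cma2 passed the filter only through the cultured libraries. In thymus against fresh MLN 3 were higher (Ctsg, Cpa3 and Prss57) and 2 were not called, beside 25.3% higher and 22% lower of all genes. These counts are read as no result about the list. Ctsg, the cathepsin G gene between Mcpt8 and Gzme, was 3.29 and 6.59 CPM in cultured cells, 0.592 and 0.399 CPM in thymus, and had 1 count over fresh MLN. It was 9.97-fold higher in cultured cells than in thymus (edgeR adjusted p = 4.07e-06), and the ratio of counts to fresh MLN was 384 for cultured cells (exact 95% counting interval 68.4 to 15200) and 38.2 for thymus (6.46 to 1550). Cma2, a chymase gene, was 3.14 and 6.92 CPM in cultured cells and had no count elsewhere, at least 131-fold above fresh MLN and at least 133-fold above thymus. Of its 50-base windows 46.5% also occur in Mcpt4 or Mcpt9, so its counts are uncertain. Cma1, the mast cell chymase gene, was 0.513 and 0.965 CPM in cultured cells, against 8 counts over fresh MLN, a 7.07-fold difference (edgeR adjusted p = 0.00136). Against thymus, with 3 counts, its ratio was 19.5 (exact 95% counting interval 6.32 to 97.7).

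Of the listed proteases encoded outside the cluster, Cpa3 and Gzmm were lower in cultured cells than in fresh MLN. Cpa3, the mast cell carboxypeptidase gene, was 0.0905 and 0.110 CPM in cultured cells, 117.0 and 121.2 CPM in thymus and 23.9 and 28.2 CPM in fresh MLN. It was lower in cultured cells than in fresh MLN by a log2 fold change of -7.97 ± 0.20 (SE; edgeR adjusted p = 7.90e-13), and higher in thymus than in fresh MLN by 2.19 ± 0.08 (SE; edgeR adjusted p = 3.24e-10). Gzmm, the gene of granzyme M, was 0.302 and 0.276 CPM in cultured cells, 1.18 and 1.09 CPM in thymus and 1.67 and 1.81 CPM in fresh MLN. It was lower in cultured cells against fresh MLN, at -2.58 ± 0.34 (SE; edgeR adjusted p = 1.31e-05), and was not called in thymus against fresh MLN (edgeR adjusted p = 0.0841). Prss57, a serine protease gene of myeloid granules, had 2 counts over the cultured libraries, was 2.86 and 2.10 CPM in thymus and had no count in fresh MLN, so that thymus was at least 63.7-fold above fresh MLN. The remaining genes had few counts. In cultured cells Mcpt9 and Tpsab1 had 22 counts each, Prtn3 had 17, Tpsb2 9, Gzmn 6, Mcpt4 2 and Tpsg1 1, and these 7 had no count in fresh MLN. In thymus Prtn3 had 3 counts, Mcpt9 had 1 and the other 5 had none. Gzmk, Gzmg, Elane, Prss34 and Cfd had no count in cultured cells. In fresh MLN Gzmk had 12 counts, and Gzmg had none in any library.

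The granules also need enzymes that activate granzymes, a matrix that holds them and inhibitors that protect the cell. Of 12 such genes, all tested, 7 were higher and 4 lower in cultured cells than in fresh MLN, beside 39.4% and 38.1% of all genes tested, with a median log2 fold change of 2.45 where the median over all genes was -0.01. Srgn, the serglycin gene, was 3531 and 3539 CPM in cultured cells, 508.8 and 624.8 CPM in thymus and 321.3 and 341.2 CPM in fresh MLN, a log2 fold change of 3.42 ± 0.10 for cultured against fresh MLN (SE; edgeR adjusted p = 3.31e-12). Ctsc, whose product removes the propeptide of granzymes, was 146.8 and 145.9 CPM in cultured cells, 145.4 and 154.9 CPM in thymus and 144.4 and 153.0 CPM in fresh MLN and was not called in any comparison. The message of the activating enzyme thus overlapped among groups in which that of its substrate differed by 700-fold. Ctsh, of another cathepsin that can process granzyme B, was 31.8 and 34.2 CPM in cultured cells, 0.0739 and 0.292 CPM in thymus and 1.28 and 2.12 CPM in fresh MLN, and was called higher in cultured cells (4.28 ± 0.20, SE; edgeR adjusted p = 3.62e-10). Cst7, which encodes cystatin F, an inhibitor of Ctsc and other cathepsins, was 303.1 and 328.0 CPM in cultured cells, 11.98 and 9.81 CPM in thymus and 9.66 and 6.98 CPM in fresh MLN (5.24 ± 0.13, SE; edgeR adjusted p = 6.67e-13 for cultured against fresh MLN).

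The inhibitors moved in both directions. Serpinb9, the mouse inhibitor of granzyme B, was 27.2 and 24.5 CPM in cultured cells, 32.0 and 37.1 CPM in thymus and 53.0 and 48.5 CPM in fresh MLN, and was lower in cultured cells by -0.98 ± 0.09 (SE; edgeR adjusted p = 4.74e-07). Serpinb9b, a relative of it, was 3.47 and 2.12 CPM in cultured cells and 0.206 and 0.823 CPM in fresh MLN, 5.44-fold higher in cultured cells (edgeR adjusted p = 0.000549), with 3 counts over thymus. Serpinb6a, an inhibitor of cathepsin G and other serine proteases, was 225.4 and 209.8 CPM in cultured cells, 12.7 and 15.1 CPM in thymus and 10.8 and 13.3 CPM in fresh MLN, and was higher in cultured cells by 4.18 ± 0.11 (SE; edgeR adjusted p = 8.88e-13). Serpinb6b (-0.52) and Serpina3g (-5.11) were lower, as was Ctsw (-1.93), a cathepsin of cytotoxic cells, while Ctsl (2.86), a lysosomal cathepsin, and Calr (2.46), which encodes calreticulin, were higher in cultured cells than in fresh MLN on the log2 scale. In thymus against fresh MLN 3 of the 12 were higher (Srgn, Calr and Cst7), 4 were lower (Ctsh, Serpinb9, Serpinb9b and Serpina3g) and 5 were not called, with a median of -0.04, beside 25.3% higher and 22% lower of all genes. In cultured cells against thymus 7 were higher and 4 lower, with a median of 2.44, beside 34.8% and 37.8% of all genes.

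Of 16 tested genes of granule movement and release, 7 were higher and 5 lower in cultured cells than in fresh MLN, with a median log2 fold change of 0.10, shares near the 39.4% and 38.1% of all genes. Against thymus 8 were higher and 4 lower, with a median of 0.17, beside 34.8% and 37.8% of all genes. In thymus against fresh MLN 3 were higher and 8 lower, with a median of -0.17, beside 25.3% and 22% of all genes. Sytl2, a Rab27 effector at granules, was 319.9 and 323.2 CPM in cultured cells, 16.9 and 15.9 CPM in thymus and 25.1 and 26.6 CPM in fresh MLN (3.64 ± 0.07, SE; edgeR adjusted p = 9.83e-14 for cultured against fresh MLN). Stx11, a syntaxin needed for release by killer cells, was 101.3 and 109.3 CPM in cultured cells, 6.95 and 6.51 CPM in thymus and 13.6 and 15.2 CPM in fresh MLN. Sytl3, another Rab27 effector, had a log2 fold change of -1.33 ± 0.19 in thymus against fresh MLN (SE; edgeR adjusted p = 7.55e-05). Nkg7, a granule protein gene of killer cells, went the other way, at 4.47 and 6.56 CPM in cultured cells, 101.2 and 109.7 CPM in thymus and 60.9 and 52.5 CPM in fresh MLN. Fasl, the death ligand, had 0 and 6 counts in cultured cells and was 4.61 and 5.61 CPM in thymus and 8.46 and 7.12 CPM in fresh MLN. Both were lower in cultured cells than in fresh MLN, by -3.35 ± 0.14 for Nkg7 (SE; edgeR adjusted p = 7.51e-11) and -6.44 ± 0.42 for Fasl (SE; edgeR adjusted p = 9.56e-09).

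**Figure D4:**
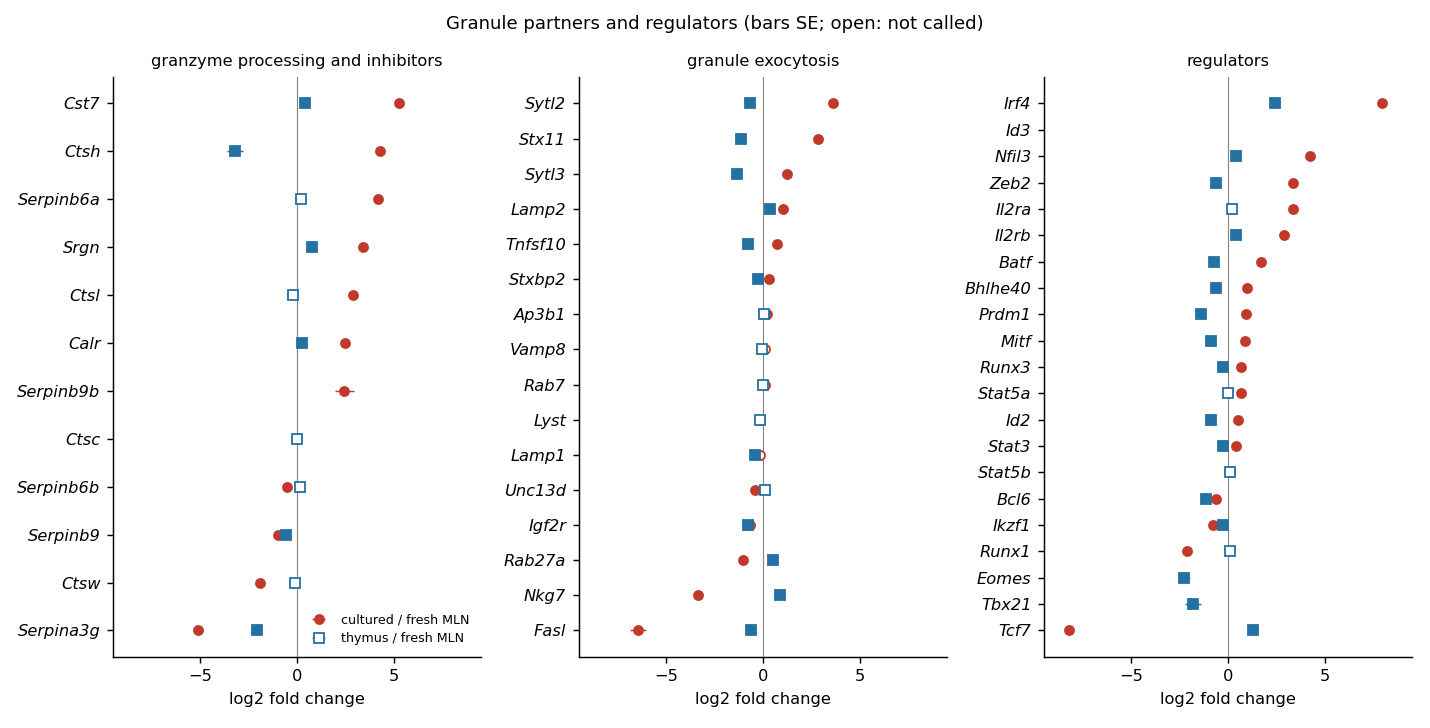
Log2 fold change against fresh MLN of genes of granzyme processing and inhibition, granule exocytosis and regulation, for cultured MLN (circles) and thymus (squares), with bars of 1 SE; open symbols were not called, and values with 3 or fewer counts in either group are not drawn. In cultured cells the processing genes run from -5.11 (Serpina3g) to 5.24 (Cst7) and the release genes from -6.44 (Fasl) to 3.64 (Sytl2), and among the regulators Irf4 (7.91) and Tcf7 (-8.23) lie at the ends.

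Among 21 tested regulators of granule genes and of the lymphocytes that carry them, 14 were higher and 6 lower in cultured cells than in fresh MLN, with a median log2 fold change of 0.67, beside 39.4% and 38.1% of all genes. Against thymus 15 were higher and 5 lower (34.8% and 37.8% of all genes), with a median of 1.41. In thymus against fresh MLN 5 were higher and 12 lower (25.3% and 22% of all genes), with a median of -0.27. Irf4, a factor of activated lymphocytes, was 154.6 and 160.1 CPM in cultured cells, 3.50 and 3.54 CPM in thymus and 0.668 and 0.637 CPM in fresh MLN, 241-fold higher in cultured cells than in fresh MLN (edgeR adjusted p = 8.13e-15). Nfil3, a factor of innate lymphoid development, was 187.5 and 187.1 CPM in cultured cells, 13.5 and 13.0 CPM in thymus and 10.1 and 10.0 CPM in fresh MLN. Tcf7, the factor of early and resting lymphocytes, was 0.634 and 0.910 CPM in cultured cells, 612.5 and 514.5 CPM in thymus and 220.3 and 247.4 CPM in fresh MLN. These 3 genes had log2 fold changes of 7.91 ± 0.11, 4.22 ± 0.08 and -8.23 ± 0.16 (SE) for cultured against fresh MLN. Zeb2, a factor of late killer cells, was 16.1-fold higher in cultured cells than in thymus (edgeR adjusted p = 2.20e-13). Prdm1, which encodes Blimp-1, was lower in thymus than in fresh MLN by -1.41 ± 0.08 (SE; edgeR adjusted p = 1.88e-08), as was Bcl6, a repressor, by -1.14 ± 0.17 (SE; edgeR adjusted p = 9.62e-05).

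A further 4 regulators were picked after their values were seen. Tbx21 and Eomes, the T-box factors that drive Gzmb and Prf1 in killer cells, were both low. Tbx21 had 1 count over the cultured libraries, and was 0.296 and 0.771 CPM in thymus and 1.88 and 1.86 CPM in fresh MLN. Eomes had 2 counts over the cultured libraries, and was 0.468 and 0.691 CPM in thymus and 2.90 and 2.76 CPM in fresh MLN. What part these factors had in the granule gene levels was not tested. Of the RUNX genes, whose word the promoters hold, Runx3 was 309.9 and 313.4 CPM in cultured cells, 165.9 and 161.8 CPM in thymus and 197.4 and 194.1 CPM in fresh MLN. Runx1 was 31.4 and 26.6 CPM in cultured cells, 143.6 and 127.5 CPM in thymus and 132.9 and 119.0 CPM in fresh MLN. In cultured cells against fresh MLN, Runx3 was higher by 0.67 ± 0.06 (SE; edgeR adjusted p = 4.13e-07) and Runx1 lower by -2.12 ± 0.09 (SE; edgeR adjusted p = 2.07e-10).

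Other cells also carry these granule genes, so their markers were read in the same libraries. The 10 NK cell and ILC1 markers summed to 90.6 and 105 CPM in cultured cells, 38.3 and 38.3 CPM in thymus and 46.1 and 47.2 CPM in fresh MLN. In cultured cells that sum was Itga2 (62.6 and 75.8 CPM) and Cd244a (27.9 and 28.8 CPM), while Klrb1c, Klra8, Klra9 and Klrc1 had no count and Ncr1 had 3. Ncr1 was 0.813 and 0.957 CPM in thymus and 6.63 and 7.25 CPM in fresh MLN, and Klrb1c was 1.31 and 2.31 CPM in thymus and 5.99 and 5.95 CPM in fresh MLN. Itga2 and Cd244a were higher in cultured cells than in fresh MLN, 3.48-fold and 10.0-fold, and the other 8 markers were lower. The part of NK cells in the granule gene levels of any group was not tested.

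The 8 T cell markers summed to 55.1 and 63.4 CPM in cultured cells, 112 and 113 CPM in thymus and 137 and 135 CPM in fresh MLN, mostly Cd3e, with 2 counts of Cd8a and 1 of Cd8b1 in cultured cells. The 11 mast cell markers summed to 2660 and 2670 CPM in cultured cells, 2280 and 2280 CPM in thymus and 2240 and 2210 CPM in fresh MLN. That sum was mostly Kit and Il1rl1, the sorted receptor. Ms4a2 and Mrgprb1 had no count in cultured cells and Fcer1a had 2. The 9 basophil markers summed to 2290 and 2410 CPM in cultured cells, 48.1 and 46.0 CPM in thymus and 33.9 and 35.2 CPM in fresh MLN, and moved with Mcpt8. In cultured cells nearly all of it was Cyp11a1, a steroid-making enzyme, at 2135 and 2253 CPM, and Itga2 came next, while Prss34, Ms4a2 and Fcer1a, which define basophils and mast cells, had 0, 0 and 2 counts. Cd200r3, of the basophil list, was 42.5 and 35.9 CPM in cultured cells against 0.308 and 0.345 CPM in fresh MLN. Hdc, the histamine-making enzyme and a mast cell marker here, was 179.2 and 120.4 CPM in cultured cells against 1.16 and 1.25 CPM in fresh MLN. These 2 were picked after their values were seen. Of the 6 mast cell markers tested, 4 were higher and 2 lower in cultured cells than in fresh MLN. The lower ones were Kit (log2 fold change -0.91 ± 0.08, SE) and Cpa3 (-7.97 ± 0.20, SE). Of the 5 basophil markers tested, 4 were higher and Cebpa was lower, with 9 counts in cultured cells against 30 in fresh MLN. Of all genes tested 39.4% were called higher and 38.1% lower. The part of basophils or mast cells in the Mcpt levels was not tested beyond these values. Plasmacytoid dendritic cells carry Gzmb too. Their 8 markers summed to 160 and 161 CPM in cultured cells, 208 and 217 CPM in thymus and 629 and 563 CPM in fresh MLN. In cultured cells the sum was mostly Bst2 (86.0 and 86.6 CPM), Tcf4 (54.0 and 54.3 CPM) and Irf8 (16.3 and 16.2 CPM), Siglech had 2 counts and Klk1 none. In fresh MLN it was mostly Ccr9 (335.3 and 268.6 CPM) and Bst2 (227.7 and 222.4 CPM), and Irf8 was 2.36-fold higher in cultured cells than in fresh MLN (edgeR adjusted p = 2.35e-06). The 8 neutrophil markers summed to at most 2.76 CPM in any library. The 8 macrophage markers summed to 21.0 and 20.1 CPM in cultured cells, 6.38 and 10.1 CPM in thymus and 87.0 and 92.5 CPM in fresh MLN. In cultured cells Cd68 (16.9 and 15.96 CPM) and Adgre1 (3.59 and 3.56 CPM) led, both called higher than in fresh MLN (4.13-fold and 13.7-fold), Cybb had 2 and 3 counts and Marco none. In fresh MLN Cybb led at 72.3 and 66.8 CPM. Tcf4, Irf8 and Adgre1 were picked after their values were seen, and what part such cells had in the results was not tested.

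The 2 cultured libraries differed from each other in the granule genes more than in most genes. All 9 genes with 10 or more counts in both libraries were higher in library 2, with log2 ratios from 0.03 (Gzme) to 2.12 (Mcpt2) and a median of 0.70. Over all 14565 genes with such counts the median was 0.003 and the 5th and 95th percentiles were -0.42 and 0.41, and 7 of the 9 granule genes lay above the 95th percentile. Gzma was 2.00 times as high in library 2 as in library 1, Mcpt1 2.04 times, Gzmc 1.62 times, Gzmb 1.50 times and Mcpt8 1.47 times, while Prf1 was 1.16 times and Gzme 1.02 times as high. Ctsg (log2 ratio 1.00), Cma1 (0.91) and Cma2 (1.14), which lie in the same cluster, were higher in library 2 as well. Among the 9147 genes with a mean of at least 10 CPM in cultured cells, the 12 with the highest ratio included Mcpt1, Gzma, Gzmc, Gzmb and Mcpt8, and Camk2b, a kinase gene, led with a log2 ratio of 1.04. At the other end stood Hdc (-0.57), Csf2 (-0.63), a growth factor gene, and Pdcd1 (-0.84), which encodes PD-1, genes picked after their values were seen. In the other groups the granule genes with enough counts were all lower in library 2. The 4 in thymus had log2 ratios from -0.97 to -0.21 and the 3 in fresh MLN from -0.22 to -0.14. Of these, only Gzmc in thymus, at -0.97, lay below the 5th percentile of all genes in its group, which was -0.48. For Gzma, the log2 fold change against fresh MLN was 2.45 without cultured library 1 and 1.46 without cultured library 2, both called. Without cultured library 1 the log2 fold change of Gzmb against fresh MLN was 9.72, and without cultured library 2 it was 9.14.

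**Figure D5:**
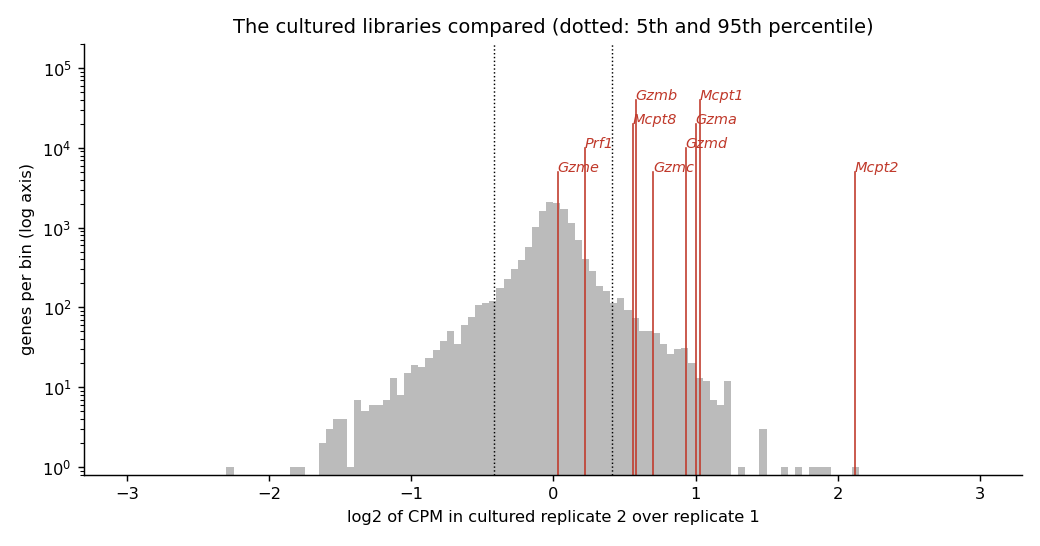
Distribution over genes of the log2 ratio of CPM in cultured library 2 to library 1 (grey bars, number of genes per bin on a log axis; genes with at least 10 counts in both), with the granule genes drawn as labelled lines and the 5th and 95th percentiles dotted. All 9 granule genes lie to the right of 0, and all but Gzme and Prf1 lie beyond the 95th percentile of 0.41.

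The genes whose profile over the 6 libraries was most like that of a granule gene were found by the Euclidean distance between log2(CPM + 0.5) values, each gene centred on its own mean, among 10071 genes with a group mean of at least 10 CPM. The nearest to Gzmb was Aqp9, an aquaporin gene, at a distance of 0.883, with 614 CPM in cultured cells, 4.31 CPM in thymus and 0.990 CPM in fresh MLN, followed by Scd1 (1.40) and Alox8 (1.61), both of lipid metabolism. The nearest to Mcpt8 were Csn2, a milk casein gene, at 0.514, Col18a1 at 0.524 and Peg10 at 0.561. The nearest to Gzmc were Arhgef25 (0.452), Ak4 (0.552) and Tent5c (0.780), and to Mcpt1 Ly6g (0.350), Trp73 (0.443) and Gm25043 (0.527). Prf1 was nearest to Gdpd5 (0.275), Irak3 (0.405) and Ccdc184 (0.431), all of which were lowest in thymus, and Gzma to Myo7a (0.616), Castor2 (0.633) and Nomo1 (0.650). No gene was among the 3 nearest of more than 1 granule gene, and Prf1 was 7.60 from Gzmb, one of the larger distances among the granule genes.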

How the data were processed

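RNA of about 300000 sorted ILC2 per sample was made into libraries with a stranded mRNA kit, per the labels. The authors deposited, per library, raw counts of reads for 37991 Ensembl genes without normalization. Per the submitters' processing notes the tool was HTSeq 0.5.3p9 and the builds are given as mm9 and NCBIM37; no aligner, annotation release, strand setting or rule for multiply aligned reads is given in the sources used here, so counts of near-identical or overlapping genes are uncertain. Symbols and exon lengths came from GENCODE M21 by Ensembl identifier (32919 matched, 5072 did not), and promoters and gene order from RefSeq (GRCm38.p6).

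One model of the group means, without a block, was fitted to all 6 libraries (35280692 to 40578264 counts) by edgeR 4.0.16 in R 4.3.3: TMM factors, the default filterByExpr filter (16231 genes left), a two-sided quasi-likelihood F test and Benjamini-Hochberg adjustment across the genes tested, with calls at an adjusted p under 0.05. The fit had 3 residual and 9.54 prior degrees of freedom. CPM values use TMM-scaled totals, an SE is the absolute log2 fold change over the square root of F, and SDs are over the 2 libraries of a group. Where a group had no count, the fold is a lower bound that gives the group 3 counts, and against 1 to 3 counts the ratio has an exact 95% interval. Both cover counting error only, because the reads carry no molecular identifiers and are not independent molecules. With 2 libraries against 2 a permutation test cannot go below p = 0.333, so none was run. The fit was tested on simulated data in which few genes changed. That test does not give its error rate in these data. DESeq2 1.42.0, other scalings, filters and sets of libraries were alternatives.

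The 10 genes and the lists were chosen with earlier results of these data known. All 10 genes and all listed proteases, processing genes and inhibitors are named; of release genes and regulators, up to 3 called genes per comparison, those of largest change that reach 5 CPM in the higher group; of other cell types, the most abundant markers and those at 0; and the 3 nearest profiles. Other genes are said to be picked after their values were seen. Vamp7 had no matching identifier, and protein sequences were not used here. A further cell type marker list is not reported here.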

Additional observations from a re-analysis of the deposited data

How the results depend on the processing

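The number of granule genes called, 9 in cultured cells against fresh MLN, 9 against thymus and 3 in thymus against fresh MLN, was recomputed under each alternative. Of the 9 genes, 5 passed the filter on low counts only through the cultured libraries, so they had to differ there and their calls carry no weight. In the same order of comparisons, 77.6%, 72.7% and 47.3% of all genes tested were called. The number of granule genes called stayed between 7 and 9, 7 and 9, and 2 and 3. Of the 4 surrounding lists 55 genes were tested as reported, and from 46 to 67 over the alternatives. Between 41 and 53 of them were called (48 as reported), 40 and 52 (49) and 32 and 39 (38). The 7 came from DESeq2, which did not call Gzmd and Mcpt2, from a filter that asks for 5 CPM in 2 or more libraries, which left those 2 out, and from adding the counts of close copies, which leaves fewer features. Of 344 recomputed fold changes of single genes 336 kept their direction and their side of the threshold and 7 lost the call: Gzmd and Mcpt2 under DESeq2 in both comparisons of cultured cells, and Gzmc in thymus against fresh MLN, as given above. The cause was not tested. Gzma in thymus against fresh MLN, not called, changed sign without the first thymus library, at -0.021 (adjusted p = 0.975), and ranged up to 0.19 over the libraries left out. Library totals alone in place of TMM factors moved the median of all genes to -0.23 in cultured against fresh MLN and to -0.316 in cultured cells against thymus, and the calls against thymus to 4254 higher and 7880 lower, where TMM gave 5654 and 6139; against fresh MLN they were 5382 and 7498, where TMM gave 6403 and 6189. The granule genes kept their direction there. With the replicate number as a block the counts were 9, 9 and 3, and 48, 50 and 38 for the lists. Deviations of same-numbered libraries correlated over 16231 genes at 0.03, 0.063 and 0.2, so the numbers were not taken as pairs. Depth limits Gzmf, Gzmd and Mcpt2 in cultured cells and Gzmc and Mcpt8 in both thymus and fresh MLN, each of which rests on fewer than 100 counts per group.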

Other observations

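Hif1a, the gene of an oxygen-sensing transcription factor, was picked after its values were seen because it was among the 12 genes of at least 10 CPM with the highest ratio between the cultured libraries. It was 530.4 and 773.9 CPM in cultured cells, 139.7 and 141.6 CPM in thymus and 92.8 and 100.3 CPM in fresh MLN. Il2ra, the high-affinity IL-2 receptor chain, and Il2rb, the chain shared with the IL-15 receptor, are receptors of cytokines that raise Gzmb in killer cells. Il2ra was 7901 and 7761 CPM in cultured cells, 891.7 and 838.7 CPM in thymus and 814.4 and 715.3 CPM in fresh MLN, and Il2rb was 838.4 and 845.1 CPM in cultured cells, 151.4 and 150.7 CPM in thymus and 131.0 and 99.1 CPM in fresh MLN. Against fresh MLN the cultured cells were 10.2-fold higher in Il2ra (edgeR adjusted p = 1.35e-12). Both genes had nearly the same value in the 2 cultured libraries. What part they had in the Gzmb levels was not tested. These genes too were picked after their values were seen.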
